A study of Mus musculus with 8 samples.

Results

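Dendritic cell (DC)-like cells made up a small population of B16F10 melanomas: 69 of the 28411 cell barcodes kept by the filters (0.243%), of 41925 barcodes in all, and 69 of the 2014 kept barcodes with few melanoma transcripts (3.43%). They were chosen by their measured counts of unique molecular identifiers (UMIs, 1 per captured transcript). A DC-like cell held at least 5 UMIs of the MHC class II genes Cd74, H2-Aa, H2-Ab1 and H2-Eb1 together, or at least 3 UMIs of Fscn1. It also held at least 1 UMI of Fscn1, Ccr7, Ccl22, Flt3, Xcr1, Clec9a or Cd209a. Barcodes with 3 or more UMIs of C1qa, C1qb and C1qc, 10 or more of Col1a1, Col1a2, Col3a1 and Dcn, or 0.3% or more of their UMIs in Mlana, Pmel, Dct, Tyr and Tyrp1 were left out. Values of these genes therefore describe the choice, and they were left out of the calls between classes of cells.

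The 8 tumours were grown from B16F10 cells, a mouse melanoma line of C57BL/6 origin, injected under the skin of the flank and collected at 300 mm3, with 1 single-cell library per tumour. The 4 Atf4 WT/WT hosts carried Rosa26::CreERT2 with an intact Atf4 gene, and the 4 Atf4 Δ/Δ hosts carried Rosa26::CreERT2 with Atf4 fl/fl. Hosts of each genotype received tamoxifen, so that a Cre active in all host tissues removed the floxed gene in the Δ/Δ mice. The injected melanoma cells kept their own Atf4 in every tumour. All mice are labelled as 12 weeks old, and tumours are called WT1 to WT4 and KO1 to KO4 after their labelled replicate numbers. Nothing in the labels ties 1 host to another.

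Dendritic cells take up antigen in a tissue and present its peptides to T cells, on MHC class II molecules to CD4+ cells and on MHC class I molecules to CD8+ cells. Conventional dendritic cells of the cDC1 kind carry the receptors Clec9a and Xcr1, depend on the transcription factor Irf8 and present antigen from dying cells on MHC class I, whereas Cd209a and Sirpa mark the cDC2 kind. On maturation a dendritic cell raises the chemokine receptor Ccr7, which leads it to the lymph node, the actin-bundling protein Fscn1 and the chemokine Ccl22, and it stops taking up antigen.

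Several libraries went against a label. In DC-like cells, macrophages and other myeloid cells together, Xist, which is transcribed from the inactive X chromosome, and Y-linked genes were set beside the labelled sex. WT1 is labelled male and held 67 Xist and 0 Y-linked UMIs. WT2, labelled female, held 0 and 6. WT3, labelled male, held 70 and 0, and WT4, labelled female, held 0 and 21. All 4 WT/WT libraries thus went against their labelled sex, while the 4 Δ/Δ libraries matched it, with KO1 female (83 and 0) and KO2, KO3 and KO4 male (36, 8 and 24 Y-linked UMIs, with 0 of Xist). The genotype labels were kept, and every comparison of genotypes rests on them. Whether libraries or their labels were exchanged was not tested.

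Atf4 (chr15:80255184-80257541 on GRCm38, forward strand), the gene removed from the Δ/Δ hosts by loxP sites around its 3′ exons, was scarce in DC-like cells of either genotype. It gave 0 of 14756 UMIs in WT1, 2 of 9431 in WT2, 0 of 2943 in WT3 and 6 of 23873 in WT4. The Δ/Δ tumours gave 0 of 17404 in KO1, 1 of 16975 in KO2 and 3 of 33711 in KO4. The tumours overlapped, since KO2 and KO4 held Atf4 UMIs and WT1 and WT3 held none. Summed, this was 1.57 Atf4 UMIs per 10,000 UMIs in WT/WT cells (exact Poisson 95% interval 0.677 to 3.09) and 0.587 in Δ/Δ cells (0.160 to 1.504), intervals that cover counting error only. The exact permutation test over the 3 tumours with at least 10 DC-like cells gave p = 0.333 (two-sided), which is the smallest it allows, and over the 6 tumours with at least 5 it gave p = 0.4, with a smallest p of 0.1. Melanoma barcodes, which keep the gene, held 3.39 and 3.79 Atf4 UMIs per 10,000 in WT/WT and Δ/Δ tumours. The C1q-positive macrophages held 2.13 and 0.629, although WT4 at 0.608 lay within the range of the Δ/Δ tumours (0.493 to 1.21). In Lyz2 myeloid cells the genotypes did not overlap, at 1.25, 2.48, 2.51 and 2.92 Atf4 UMIs per 10,000 in WT1 to WT4 and 0, 0.583, 0 and 0.431 in KO1 to KO4, although the 0 in KO1 and KO3 allows up to 2.25 and 6.90, above WT1. How far free melanoma RNA adds to the Atf4 UMIs of Δ/Δ cells was not tested.

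**Figure D1:**
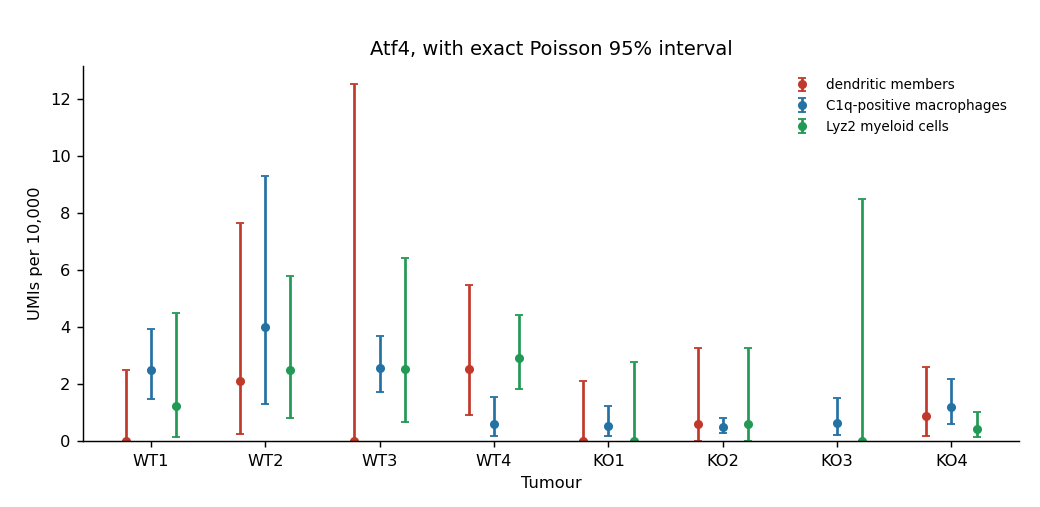
Atf4 in UMIs per 10,000 in DC-like cells, C1q-positive macrophages and Lyz2 myeloid cells of each tumour. Bars are exact Poisson 95% intervals, the endothelial-marked barcodes are counted in, and the intervals of DC-like cells overlap between the genotypes.

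A further check concerned the label of the cells themselves. Of the 69 barcodes, 6 had entered through the Fscn1 condition with fewer than 5 MHC class II UMIs, and 2 of these carried endothelial transcripts. The WT4 barcode held 6021 UMIs, 25.2% of the DC-like UMIs of that tumour, with 33 UMIs of the endothelial genes Pecam1, Cdh5, Kdr, Flt1, Emcn and Plvap. The KO1 barcode held 8639 UMIs, 49.6% of that tumour's sum, with 51. Neither held a UMI of MHC class II or of the pan-leukocyte gene Ptprc, and the highest endothelial sum among the other 67 was 1. These 2 barcodes are not dendritic by their genes and are given apart below. Counts of genes called are given with and without them, and levels per tumour include them unless stated.

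In the other 67 barcodes the dendritic markers Fscn1, Ccr7, Ccl22, Flt3, Cd74 and H2-Ab1 gave 2370 UMIs, led by Cd74 with 1439, but all 6 are genes of the rule and so do not check the label. Ptprc, which the rule did not use, was found in 38.8% of the 67, against 40.2% of macrophages and 0.280% of melanoma barcodes. Its share differed between the gene groups described below, from 22.2% of mature cells to 75% of cells with Clec9a or Xcr1. Markers of T and natural killer cells (12 genes), B cells (7), neutrophils (6) and mast cells (6) were all at 0 UMIs in the 69 barcodes, which allows a share of up to 4.35% of cells with a UMI. Macrophage markers gave 56 UMIs over 9 of 14 genes, with Lyz2 highest at 22 and Ms4a7, Trem2, Fcgr1, C1qa and C1qc at 0, the last pair being limited by the rule. Monocyte markers gave 54 UMIs over 4 of 7 genes, 30 of them from Plac8, with Chil3, Vcan and F13a1 at 0. Melanoma markers, of which Mlana, Pmel, Dct, Tyr and Tyrp1 were limited by the rule, gave 119 UMIs over 10 of 10 genes, with Dct highest at 42, and 33 of the 69 barcodes held 2 or more. Per tumour the macrophage markers summed to 1.72 to 6.80 UMIs per 10,000, the monocyte markers to 0 to 8.25 and the melanoma markers to 6.80 to 14.7. The part of melanoma RNA in the results was not tested.

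A DC-like cell held 651 to 8639 UMIs (median 1541) and 394 to 3036 genes (median 758), in libraries of 37283598 to 74942137 UMIs in all. Macrophages held a median of 2506 UMIs (321 barcodes), Lyz2 myeloid cells 1093.5 (228 barcodes) and barcodes over the melanoma limit 9740 (26397 barcodes). Near the threshold, 18 of the 69 had exactly 1 UMI of the 7 dendritic genes, 14 had 2 and 37 had 3 or more. Just outside, 47 barcodes met every condition but that on MHC class II or Fscn1, of which 2 held 3 or 4 MHC class II UMIs. A further 130 barcodes met every condition but the 1 UMI of a dendritic gene, and 76 of these held 3 or more UMIs of Lyz2. The barcode strings of the DC-like cells were not found in any other library, although 199 strings occurred in more than 1 library.

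The tumours differed widely in how many DC-like cells they gave. WT1 held 9 among 5576 kept barcodes, WT2 7 among 3075, WT3 2 among 2709 and WT4 14 among 3407. KO1 held 6 among 2946, KO2 10 among 3568, KO3 0 among 3710 and KO4 21 among 3420. KO4 had the highest and KO3 the lowest share, so that the range of the Δ/Δ tumours held that of the WT/WT tumours. The share was 0.218% ± 0.143 in WT/WT and 0.274% ± 0.255 in Δ/Δ tumours (SD, n = 4 tumours each), a difference that did not exceed the spread between tumours (exact two-sided permutation test over tumours, p = 0.743, smallest possible 0.0286). The 0 of 3710 in KO3 allows a share of up to 0.0809%, taken as 3 counts, and the exact binomial interval drawn in the plot of shares by tumour reaches 0.0994%. Most kept barcodes were melanoma cells. As a share of barcodes under the melanoma limit the difference turned, to 3.78% ± 1.89 in WT/WT and 2.47% ± 1.85 in Δ/Δ tumours (SD, n = 4 each, exact permutation test p = 0.343), and without KO4 the Δ/Δ mean was also the lower, at 0.161% of kept barcodes.

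**Figure D2:**
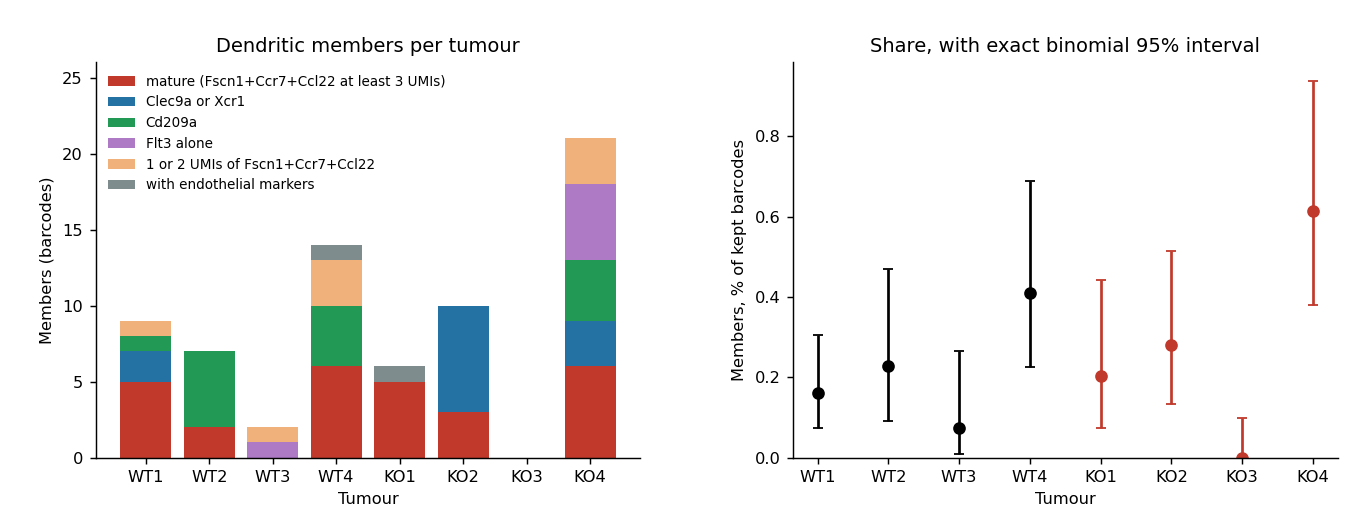
Left, number of DC-like barcodes in each of the 8 tumours, stacked by gene group, and right, the same barcodes as a percentage of kept barcodes, with exact binomial 95% intervals (WT/WT black, Δ/Δ red). KO4 holds 21 and KO3 none, and the 2 genotypes overlap.

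The dendritic genes of the rule were at or near 0 in macrophages and Lyz2 myeloid cells, while MHC class II was only lower there. Cd74, the invariant chain that escorts MHC class II, was found in 91.3% of the 69 barcodes, against 23.7% of macrophages, 47.8% of Lyz2 myeloid cells and 3.05% of melanoma barcodes, which are the deepest. Ccr7 was found in 43.5% and Ccl22 in 34.8%, with 0 UMIs in the 321 macrophages, which allows up to 0.935% of them, and 0 in the 228 myeloid cells, from which DC-like cells had been removed. Fscn1 was found in 37.7% and in 0.935% of macrophages, but in 9.09% of melanoma barcodes, so that 1 UMI of Fscn1 is a weaker mark than 1 UMI of Ccr7 here. Clec9a was found in 14.5%, Xcr1 in 4.35%, Cd209a in 21.7% and Flt3, the receptor for the dendritic growth factor Flt3 ligand, in 21.7%, with 0 UMIs of any of the 4 in macrophages.

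MHC class II itself was uneven across tumours. Cd74 reached 120, 183, 91.7 and 87.5 UMIs per 10,000 in WT1 to WT4, and 19.5, 146 and 169 in KO1, KO2 and KO4. H2-Ab1, the class II beta chain of the I-A molecule, reached 58.3, 71.0, 78.2 and 37.7 in WT1 to WT4, and 1.15, 86.0 and 67.9 in KO1, KO2 and KO4. KO1 was the lowest tumour for each gene, and apart from an endothelial-marked barcode it held only cells of the Fscn1, Ccr7 and Ccl22 group described next. Without the endothelial-marked barcodes Cd74 reached 117 in WT4 and 38.8 in KO1, and H2-Ab1 reached 50.4 and 2.28.

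Sorting the cells by the genes that admitted them gave 5 gene groups besides the endothelial-marked pair, a split made after the values were seen and described without a test. Mature cells, with at least 3 UMIs of Fscn1, Ccr7 and Ccl22 together, numbered 27: 5, 2, 0 and 6 in WT1 to WT4, and 5, 3, 0 and 6 in KO1 to KO4. Of the other 40, 12 held Clec9a or Xcr1 (2 in WT1, 7 in KO2 and 3 in KO4), 14 held Cd209a (1 in WT1, 5 in WT2, 4 in WT4 and 4 in KO4), 6 held Flt3 alone (1 in WT3 and 5 in KO4), and 8 held 1 or 2 UMIs of the mature genes with no Clec9a, Xcr1 or Cd209a, 1 of them (in KO4) with 1 UMI of Flt3. No cell outside the mature group held Cd209a together with Clec9a or Xcr1, and 1 mature cell held Cd209a. The counted mix thus differed from tumour to tumour within a genotype. The Clec9a or Xcr1 group held 7 of 10 cells in KO2 and none in WT2, WT3, WT4 or KO1. A cell could enter or miss a group by 1 UMI of a sparse gene. A count of none therefore does not show that such cells were absent from a tumour.

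The Clec9a or Xcr1 group carried other genes of the cDC1 programme, none of which had been used to choose it. Irf8 was found in 12 of its 12 cells, at 15.6 UMIs per 10,000, against 2 of 14 cells and 1.53 in the Cd209a group. Naaa, a lysosomal amidase listed as a cDC1 gene, was found in 10 of 12 cells (14.3 per 10,000) against 3 of 14 (1.53). Wdfy4, which cDC1 need to present antigen from dead cells, was found in 10 of 12 cells against 2 of 14. The Flt3 cells resembled this group in these genes, with Irf8 in 5 of 6, Naaa in 5 of 6 and Wdfy4 in 4 of 6 cells. The Flt3 cell of WT3 held 1 UMI of Irf8, 3 of Naaa and 1 of Wdfy4. In WT4, 1 cell with 1 UMI of the mature genes held 7, 5 and 1.

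The Cd209a group carried a different set. Tyrobp and Fcer1g, signalling adaptors of myeloid receptors, were found in 14 and 13 of its 14 cells at 30.6 and 21.4 UMIs per 10,000, against 7.14 and 1.34 in the Clec9a or Xcr1 group. Clec10a, a lectin of cDC2, was found in 9 of 14 cells and in 0 of 12. Ifitm1 was found in 6 of 14 cells and in 0 of 12. Cst3, the cysteine protease inhibitor cystatin C, went the other way, at 37.2 UMIs per 10,000 in the Cd209a group against 244 in the Clec9a or Xcr1 group, 165 in the Flt3 cells and 199 in mature cells. WT2, where 5 of 7 cells were in the Cd209a group, was the lowest tumour for Cst3 in DC-like cells (60.4 UMIs per 10,000). The Cd209a cells were also the shallower, with a median of 1228 UMIs against 1952.5.

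In the mature cells Socs2, a brake on cytokine signalling, was found in 9 of 27 cells, Il4i1, an amino acid oxidase, in 9, Cacnb3, a calcium channel subunit, in 14, Stat4 in 14 and Relb, the NF-kB subunit of mature dendritic cells, in 16. In the Clec9a or Xcr1 and the Cd209a groups (26 cells in all) Socs2, Il4i1, Cacnb3, Stat4 and Relb were at 0. The 8 cells with 1 or 2 UMIs of the mature genes held Relb in 3, Il4i1 and Cacnb3 in 2 each and Stat4 in 1, and 1 of the 6 Flt3 cells held Stat4. MHC class II was the lower in mature cells: their median was 16 UMIs (0 to 138) and that of the other 40 cells 68.5 (6 to 121), at median depths of 1503 and 1557 UMIs. Cells could enter the mature group through Fscn1 with fewer than 5 MHC class II UMIs, which 4 of the 27 did (with 0, 2, 2 and 4), whereas the others could not.

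**Figure D3:**
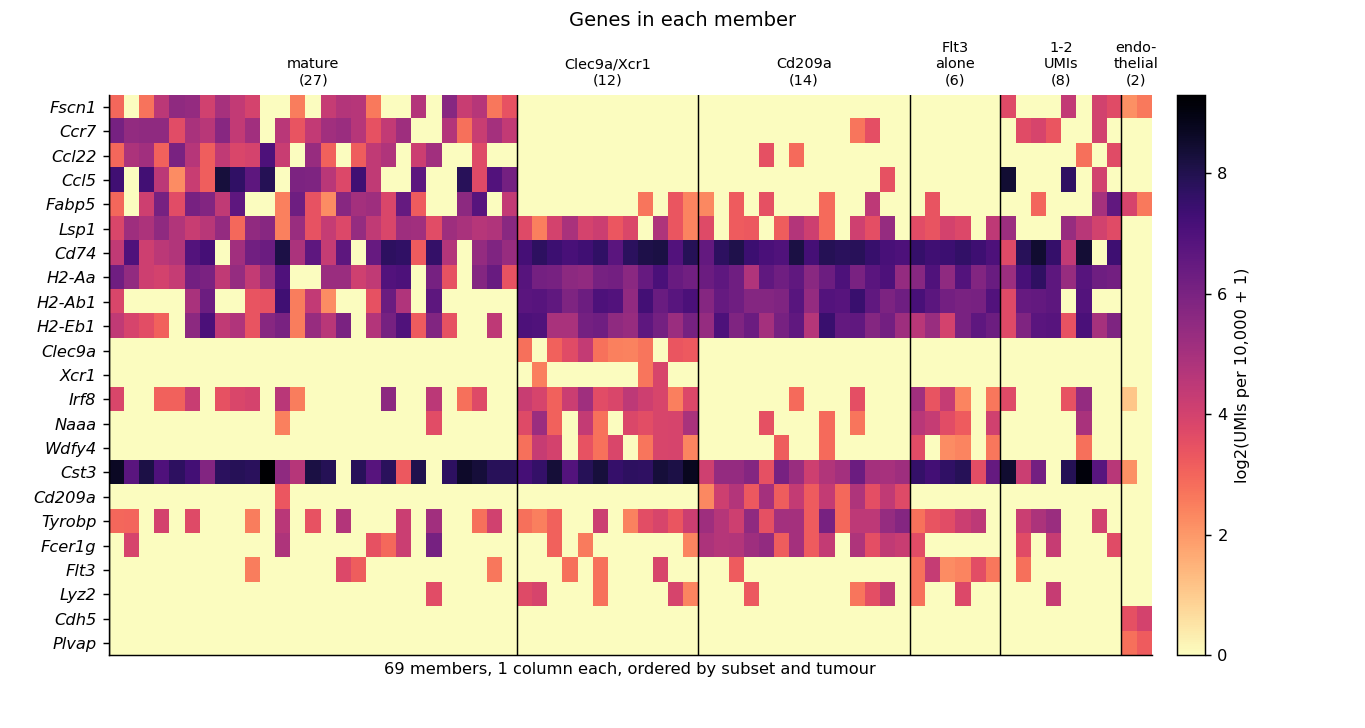
Level of 23 genes in each of the 69 DC-like barcodes, as log2(UMIs per 10,000 + 1); columns are barcodes, ordered by gene group and tumour, and the darker a cell of the map, the higher the level. Ccl5 and Fabp5 are each found in 21 of the 27 mature cells, and in 3 of the 8 cells with 1 or 2 UMIs of the mature genes. Irf8 is found in all 12 Clec9a or Xcr1 cells and in 13 mature cells. Naaa and Wdfy4 are each found in 10 of the 12. Tyrobp and Fcer1g are found in 14 and 13 of the 14 Cd209a cells, and Cdh5 and Plvap in the 2 endothelial-marked barcodes alone.

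How mature cells differed from the other DC-like cells of the same tumour was compared on UMI sums, with the tumour as a block and edgeR's quasi-likelihood test, leaving out the genes of the rule. The classes were cut from UMIs of the same barcodes, so p-values speak for consistency over tumours and not for an independent choice of cells. In the 2 tumours with at least 5 cells of each class (WT4 and KO4), 10 of 199 genes passed an adjusted p of 0.05 (5.03%), 7 higher (3.52%) and 3 lower (1.51%) in mature cells. Without the endothelial-marked barcode 0 passed in edgeR (smallest adjusted p = 0.199, with 28 genes at an unadjusted p under 0.05), and DESeq2 called 1 gene with it. A fit over the 5 tumours with at least 2 cells of each class (WT1, WT2, WT4, KO2 and KO4), without those barcodes and chosen after seeing the data, called 19 of 134 genes (14.2%), 15 higher (11.2%) and 4 lower (2.99%). Between these fits 7 genes were shared, all with the same sign (70% of the 10 and 36.8% of the 19), with Ccl5, Fabp5, B2m, H2-K1, Crip1 and Malat1 among them, each higher in mature cells. The values below are from the fit over 5 tumours, which shares its libraries with the first.

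Ccl5, a chemokine that draws T cells (chr11:83525778-83530518, reverse strand), had the largest difference of the 19. In mature cells it reached 37.8 UMIs per 10,000 in WT1, 51.3 in WT2, 76.4 in WT4, 85.6 in KO2 and 94.4 in KO4. In the other cells it reached 0, 0, 2.30, 0 and 11.8. The classes did not overlap in any tumour or between tumours, and the log2 difference was 4.31 ± 0.42 (SE, 5 of 5 tumours). Some of these sums rest mostly on 1 mature cell. Such a cell held all 12 Ccl5 UMIs of the DC-like cells in WT2, 30 of 34 in KO2 and 20 of 31 in WT1. Ccl5 reached the filter on low counts (11.8 UMIs per 10,000) in mature cells alone and so had to differ, as did Rps27l. Of the 348 Ccl5 UMIs, 297 came from mature cells, 50 from the 8 cells with 1 or 2 UMIs of the mature genes and 1 from the Cd209a group.

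Fabp5, a fatty-acid-binding protein, reached 21.9, 47.0, 31.6, 50.4 and 33.1 UMIs per 10,000 in mature cells of WT1, WT2, WT4, KO2 and KO4. The other cells reached 6.11, 1.41, 13.8, 0 and 2.11. The classes again did not overlap (log2 difference 3.24 ± 0.49, edgeR adjusted p = 7.63e-05). Melanoma barcodes held 9.87 to 12.1 Fabp5 UMIs per 10,000 in every tumour, and how far free melanoma RNA adds to the lower values was not tested.

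Of 22 genes listed for antigen presentation on MHC class I, 4 could be tested in mature cells and 3 passed as higher, against 11.2% of all genes tested, with a median log2 difference of 1.24 over the 4 against 0.04 over all 134. B2m, the light chain of every class I molecule, reached 35.3, 34.2, 31.6, 27.7 and 52.2 UMIs per 10,000 in mature cells and 18.3, 4.23, 18.4, 12.3 and 11.4 in the others. Each mature value lay above each of the others (log2 difference 1.63 ± 0.28, edgeR adjusted p = 3.85e-04). The heavy chain H2-K1 differed by 1.54 ± 0.33 (adjusted p = 0.00248) and was higher in 4 of 5 tumours, with 12.6 against 15.4 in KO2. H2-D1 differed by 0.93 ± 0.26 (adjusted p = 0.0180, 5 of 5), and the immunoproteasome subunit Psmb8 by 0.78, which did not pass. H2-K1, H2-D1 and the H2-Q genes share sequence, and how the authors' counting divides reads between them was not tested.

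Other genes that passed were spread over several roles. Lsp1, a leukocyte actin-binding protein, was higher by 1.38 ± 0.29 (edgeR adjusted p = 0.00216), Actg1 by 0.98 ± 0.22 and Crip1 by 1.10 ± 0.23, each in 5 of 5 tumours. Of the 22 cytoskeleton and migration genes 8 could be tested, 2 were higher (Lsp1 and Actg1) and none lower, against 11.2% higher and 2.99% lower among all genes, with Tmsb4x at 0.76 and Vim at 0.05 not passing. Nfkbia, the inhibitor that NF-kB itself induces, was higher by 1.40 ± 0.41 (adjusted p = 0.0250), in 4 of 5 tumours, with 9.82 UMIs per 10,000 against 10.4 in WT4. Npc2, a lysosomal cholesterol carrier, was higher by 1.59 ± 0.42, in 4 of 5 tumours. Ftl1, Malat1, Rps27l and Rps19 were higher by 0.87, 1.13, 1.70 and 0.82. Cst3 did not pass, at 0.42 ± 0.29, with the mature cells higher in WT2, WT4 and KO4 and lower in WT1 and KO2.

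The genes lower in mature cells were fewer in the fit over 5 tumours. With no filter on low counts this turned, to 10 higher and 15 lower. Cd52, a surface glycoprotein of leukocytes, fell from 38.2, 32.4, 18.4, 20.8 and 16.4 UMIs per 10,000 in the other cells of WT1, WT2, WT4, KO2 and KO4 to 2.44, 8.55, 9.82, 12.6 and 11 in mature cells, without overlap (log2 difference -1.26 ± 0.39, edgeR adjusted p = 0.0311). Ptma, the nuclear protein prothymosin alpha, differed by -1.31 ± 0.29, and the ribosomal protein genes Rpl4 and Rps3 by -1.11 and -0.73. Ribosomal genes have many processed copies in the genome, so that their counts are uncertain. Scaling by library size without TMM gave 15 higher and 8 lower, and DESeq2 12 higher and 1 lower. In the fit over 2 tumours Psap, Ifitm2 and Tyrobp were the lower genes (-1.87, -1.81 and -1.65), and none of them could be tested over 5 tumours. In a sum over cells, a change within each cell and a change in the mix of the other cells cannot be told apart.

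**Figure D4:**
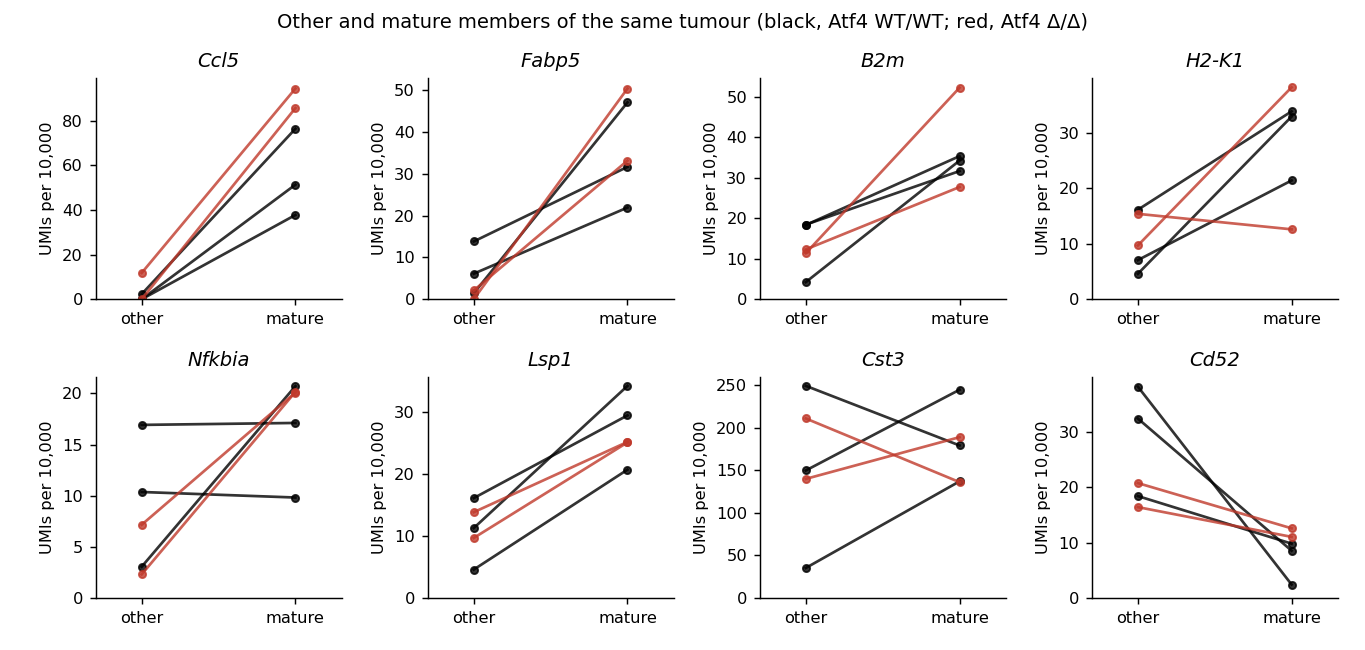
Level of 8 genes, in UMIs per 10,000, in the other and the mature DC-like cells of each of 5 tumours, joined by a line per tumour (WT/WT black, Δ/Δ red), without the endothelial-marked barcodes. Ccl5, Fabp5 and B2m are higher in mature cells of every tumour and Cd52 is lower, whereas lines for Cst3 cross.

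The promoters of 3 of the higher genes are shown because NF-kB, a transcription factor of dendritic maturation, binds motifs of the form GGGA, any 4 bases, CC. The motif was chosen after the values were seen. Of the 15 higher genes 11 matched a RefSeq promoter window (300 bases, 250 before to 50 after the start of the gene), and 5 of the 11 held the motif on either strand (B2m, H2-D1, H2-K1, Nfkbia and Rps19), as did 1 of 3 matched lower genes (Rpl4) and 22.9% of 27025 genes with a window. The narrower form GGGA, any 2 bases, TTCC, which overlaps it, was in B2m and Nfkbia, and in 1.63% of all. The windows below are RefSeq sequence on GRCm38.p6, 5′ to 3′ in the sense of the gene, from 250 to 11 bases before its start, at chr2:122147437-122147676 (forward) for B2m, chr17:34000358-34000597 (reverse) for H2-K1 and chr12:55492658-55492897 (reverse) for Nfkbia. Capitals mark the matches to the wider form on either strand, 2 in each window, which overlap in B2m and H2-K1. A match describes the letters and says nothing of binding in these cells.
B2m: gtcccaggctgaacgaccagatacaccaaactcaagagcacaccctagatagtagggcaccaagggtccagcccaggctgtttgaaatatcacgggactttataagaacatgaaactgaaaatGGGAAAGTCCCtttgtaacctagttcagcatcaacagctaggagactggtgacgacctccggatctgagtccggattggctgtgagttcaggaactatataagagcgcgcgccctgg
H2-K1: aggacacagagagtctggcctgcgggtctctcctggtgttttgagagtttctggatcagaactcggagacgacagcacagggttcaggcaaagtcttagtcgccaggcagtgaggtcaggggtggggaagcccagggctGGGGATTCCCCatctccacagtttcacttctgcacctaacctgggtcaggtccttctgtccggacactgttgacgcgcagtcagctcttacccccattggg
Nfkbia: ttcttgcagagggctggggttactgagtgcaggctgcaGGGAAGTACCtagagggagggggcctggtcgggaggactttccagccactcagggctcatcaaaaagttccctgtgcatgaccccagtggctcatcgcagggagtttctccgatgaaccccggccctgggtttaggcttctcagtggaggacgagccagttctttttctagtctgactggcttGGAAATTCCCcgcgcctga

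How the DC-like cells stood apart from macrophages was compared next, in the 3 tumours with at least 10 cells of each class (WT4, KO2 and KO4). Macrophages were barcodes under the same limits with at least 3 UMIs of C1qa, C1qb and C1qc. Of 767 genes tested outside the rule, 214 passed (27.9%), 80 higher (10.4%) and 134 lower (17.5%) in DC-like cells, and 213 of the 214 moved the same way in all 3 tumours. DESeq2 called 129, and edgeR 223 without the endothelial-marked barcode. A fit over 6 tumours with at least 5 cells of each class, without the endothelial-marked barcodes and chosen after seeing the data, called 170 of 349 (48.7%), 72 higher (20.6%) and 98 lower (28.1%), or 100 and 91 without TMM scaling. The fits shared 115 genes, all with the same sign (53.7% of the 214 and 67.6% of the 170). Values below are from the fit over 3 tumours, which holds the endothelial-marked barcode of WT4. Without the barcodes admitted by Fscn1 alone it had 2 tumours and called 10 genes. A gene could enter the test through 1 class alone, by reaching the filter on low counts (2.01 UMIs per 10,000) in no tumour of the other, and such a gene had to differ. This was so for 29 of the 80 higher and 80 of the 134 lower genes, and the values of such genes are a description.

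Cst3 was higher in DC-like cells of each tumour. It reached 148, 193 and 154 UMIs per 10,000 in DC-like cells of WT4, KO2 and KO4, against 10.3, 16.4 and 15.1 in macrophages. Every DC-like value was above every macrophage value (log2 difference 3.47 ± 0.17, SE, edgeR adjusted p = 4.70e-07). Among the 11 pan-dendritic genes listed, 5 were tested. Cst3 and Pkib (2.51 ± 0.52) were higher and none lower, against 10.4% higher and 17.5% lower among all genes. Pkib entered through DC-like cells alone.

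Of 38 genes listed for the mature programme 7 were tested, 6 higher and 1 lower, against 10.4% higher and 17.5% lower among all genes. The 6 higher genes all entered through DC-like cells alone, so that their direction follows from the filter and their values are a description. Ccl5 reached 30.2, 20.03 and 36.2 UMIs per 10,000 against 0.456, 0.524 and 0.110 in macrophages (5.83 ± 0.40). Tbc1d4, a Rab GTPase-activating protein, differed by 4.71 ± 0.47, Samsn1 by 3.61 ± 0.60, Tmem123 by 2.92 ± 0.51, Cd83 by 1.75 ± 0.57 and Gadd45b by 1.37 ± 0.41. Fabp5, which reached the filter in both classes, was lower, at 18.4, 11.8 and 11.3 against 48.2, 31.5 and 19.2 (-1.28 ± 0.23), and it was among the genes higher in mature than in other DC-like cells.

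Antigen-processing genes moved in both directions. H2-DMb1 and H2-DMa, which load peptide onto MHC class II, were higher by 3.37 ± 0.44 and 2.00 ± 0.55, with H2-DMb1 entering through DC-like cells alone. The class II pathway proteases Ctss and Lgmn were lower by -1.83 ± 0.25 and -3.60 ± 0.42. For MHC class I, 11 of 22 listed genes were tested, 3 higher and 2 lower, against 10.4% higher and 17.5% lower among all genes: the immunoproteasome subunits Psmb8 (2.06 ± 0.29) and Psmb9 (2.26 ± 0.36) and H2-Q7 (3.18 ± 0.58) were higher, and the chaperones Calr (-0.77) and Canx (-1.91) lower. Of these 5, Psmb8 and Calr reached the filter in both classes. B2m gave -0.06 ± 0.27 (adjusted p = 0.897). The cDC1 genes Irf8 (2.58 ± 0.43) and Naaa (3.01 ± 0.49) were higher, Naaa entering through DC-like cells alone, and Id2 (0.74) did not pass.

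Apoe entered through macrophages alone, and most lysosome genes tested were lower in DC-like cells. Apoe, a lipid carrier made in quantity by macrophages, gave 1 UMI in each of the 3 tumours (0.419, 0.589 and 0.297 per 10,000) against 31.6, 160 and 54.8 per 10,000 in macrophages (-7.52 ± 0.35). Melanoma barcodes held 8.94 to 11.1 Apoe UMIs per 10,000. The lysosomal proteases Ctsd, Ctsb and Ctsl differed by -5.96 ± 0.33, -5.63 ± 0.29 and -4.33 ± 0.46, with Ctsb at 2.09, 1.77 and 0.890 against 64.9, 86.0 and 64.5. Of 19 lysosome genes listed, 17 were tested, 13 were lower and none higher, against 17.5% lower among all genes, 4 of the 13 (Ctsd among them) entering through macrophages alone. Npc2 (0.02), Ctsh (-0.09), Asah1 (-0.70) and Lamp2 (-0.90) did not pass.

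Uptake receptors were scarce in DC-like cells, with 51 UMIs over 13 of 22 genes in the 69 barcodes. The 5 that could be tested all entered through macrophages alone, so their direction follows from the filter: Cd36, a scavenger receptor, gave -3.72 ± 0.75, the Fc receptor Fcgr3 -4.53 ± 0.64 and the mannose receptor Mrc1 -4.65 ± 0.61, and Msr1 and Fcgr1 gave 0 UMIs in DC-like cells of the 3 tumours. Of 13 chemokine and cytokine genes tested, Ccl5, Cxcl9 (3.06 ± 0.77) and Il1b (2.84 ± 0.46) were higher (10.4% higher among all genes). Of these, Il1b reached the filter in both classes. The 7 lower genes (17.5% lower among all genes) all entered through macrophages alone. Ccl2, which draws monocytes, gave 1 UMI in all 3 tumours (-7.70 ± 0.59), and Pf4, Ccl8 and Ccl12 gave none, against 165, 826 and 267 UMIs of Pf4 in the macrophages of WT4, KO2 and KO4.

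Of 11 cytoskeleton genes tested, Lsp1 (3.99 ± 0.42), Tmsb10 (1.17), Actg1 (0.91) and Tmsb4x (0.82) were higher and Vim (-0.97) lower, against 10.4% higher and 17.5% lower among all genes, with Vim higher in DC-like cells of WT4, the tumour with the endothelial-marked barcode, and Lsp1 entering through DC-like cells alone. Of 10 glycolysis genes tested 4 were lower (Pkm, Ldha, Aldoa and Tpi1, by -0.89 to -1.14) and none higher, against 17.5% lower among all genes. The NF-kB subunit Rel, entering through DC-like cells alone, was higher (3.18 ± 0.45) and Nfkbia (1.11), Ikbkb (1.35) and Bcl2a1b (0.68) did not pass. Of 3 interferon-stimulated genes tested none passed, and of 3 cell-cycle genes H2afz was higher (1.31 ± 0.22). Among ATF4 target genes Atf3 (-1.80) and Cebpb (-2.19) were lower, Cebpb entering through macrophages alone, and Slc3a2 (0.40) did not pass. Over 6 tumours, without the endothelial-marked barcodes, Tmsb10 (0.60) did not pass, and Nfkbia (1.54) and Id2 (1.07) did.

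**Figure D5:**
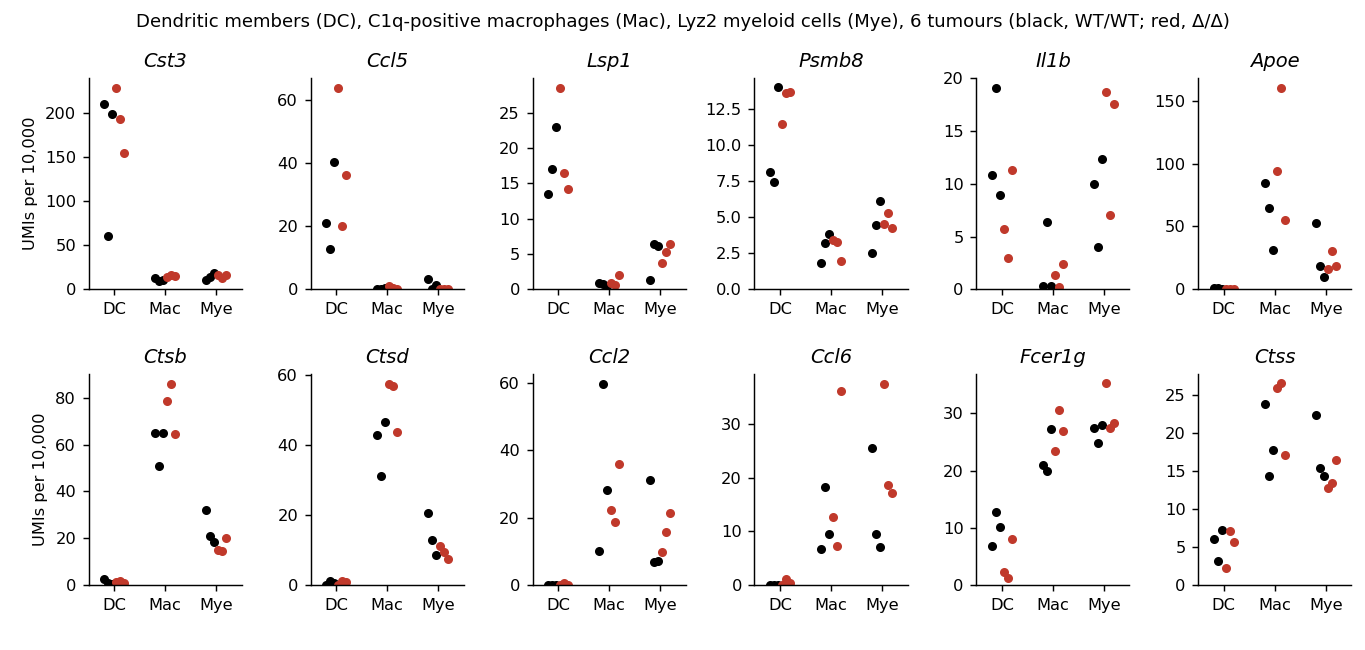
Level of 12 genes, in UMIs per 10,000, in DC-like cells (DC), C1q-positive macrophages (Mac) and C1q-negative Lyz2 myeloid cells (Mye) of each of 6 tumours, 1 point per tumour (WT/WT black, Δ/Δ red), without the endothelial-marked barcodes. Cst3, Ccl5 and Psmb8 peak in DC-like cells, Apoe, Ctsb and Ctsd in macrophages, and Fcer1g is lowest in DC-like cells.

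The second comparison was with C1q-negative myeloid cells holding at least 3 UMIs of Lyz2, the lysozyme gene of macrophages, monocytes and granulocytes. Of the 228 such cells in all tumours, 76 met every condition for DC-like cells but the 1 UMI of a dendritic gene. The comparison is thus partly with cells close to the rule. In WT4, KO2 and KO4, 112 of 445 genes passed (25.2%), 40 higher (8.99%) and 72 lower (16.2%) in DC-like cells, all in the same direction in 3 tumours. DESeq2 called 59, and edgeR 105 without the endothelial-marked barcode. Over 6 tumours, again without the endothelial-marked barcodes, 83 of 240 passed (34.6%), 31 higher (12.9%) and 52 lower (21.7%), and 63 were shared with the same sign (56.2% of the 112 and 75.9% of the 83). The comparison shares its DC-like cells with that against macrophages, so the values stand side by side and are not independent. Here 12 of the 40 higher and 38 of the 72 lower genes entered through 1 class alone (filter 3.47 UMIs per 10,000).

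Cst3, at 148, 193 and 154 UMIs per 10,000 against 18.5, 12.2 and 15.8, was again higher without overlap (3.38 ± 0.18, edgeR adjusted p = 3.96e-11). Ccl5 differed by 5.91 ± 0.44, Tbc1d4 by 6.86 ± 0.71 (1 UMI in the myeloid cells), Irf8 by 2.90 ± 0.49, Samsn1 by 2.46 ± 0.53 and Rel by 2.14 ± 0.44, these 5 entering through DC-like cells alone. Psmb9 (2.29 ± 0.49), Psmb8 (1.42 ± 0.26) and H2-K1 (0.81 ± 0.21) were the higher genes of 7 tested for MHC class I, and none was lower, against 8.99% higher and 16.2% lower among all genes, with Psmb9 entering through DC-like cells alone. Of 4 genes tested for the MHC class II pathway outside the rule, H2-DMb1 was higher by 0.93 ± 0.34 (adjusted p = 0.0490), Ctss (-1.30) and Lgmn (-1.59) were lower, Lgmn entering through myeloid cells alone, and H2-DMa (0.56) did not pass.

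Of 7 chemokine and cytokine genes tested 5 were lower, against 16.2% of all genes, but 4 of these entered through myeloid cells alone and Il1b was the other, while Ccl5 was higher and Ccl4 (-0.86) did not pass. Cxcl2, which draws neutrophils, reached 1.26, 0.589 and 0.890 UMIs per 10,000 against 26.6, 36.1 and 66.7 (-5.54 ± 0.36). Ccl6 (-5.01 ± 0.49), Ccl9 (-4.81 ± 0.52), Ccl2 (-6.56 ± 0.60), Thbs1 (-6.87 ± 0.57) and the endotoxin co-receptor Cd14 (-4.83 ± 0.51) were also lower. So were Ly6c2 (-3.93 ± 0.64) and Ccr2 (-2.65 ± 0.46), which mark classical monocytes, and Chil3 gave 0 UMIs in DC-like cells against 126, 48 and 425 in the myeloid cells. All of these from Cxcl2 to Chil3 entered through myeloid cells alone. Il1b, higher than in macrophages, was lower than in these cells (-0.74 ± 0.24, adjusted p = 0.0321), although over 6 tumours it gave -0.39 and did not pass. Of 12 lysosome genes tested 6 were lower and none higher, and of 3 uptake receptors 3 were lower. Among all genes 16.2% were lower and 8.99% higher. These 9 lower genes all entered through myeloid cells alone. The interferon-stimulated genes Ifitm3 (-0.97) and Ly6e (-1.21), which reached the filter in both classes, were lower and Isg15 (-0.74) did not pass.

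Whether deletion of Atf4 in the host changed the DC-like cells was asked of their composition first. Mature cells, here counted with the endothelial-marked barcodes, made up 55.6% of DC-like cells in WT1, 28.6% in WT2 and 50% in WT4, and 100% in KO1, 30.0% in KO2 and 28.6% in KO4. KO1 was the highest, and the other 2 Δ/Δ tumours lay at the low end of the WT/WT range. The mean was 44.7% ± 14.2 in WT/WT and 52.9% ± 40.8 in Δ/Δ tumours (SD, n = 3 each, exact permutation test p = 0.9, smallest possible 0.1). With each cell thinned to 1000 UMIs, which kept 25 WT/WT and 32 Δ/Δ cells, the difference was 0.700 percentage points in place of 8.15.

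Gene by gene, few differences between the genotypes passed, but the fits below could miss changes. On simulated data the fit over 3 tumours called 2 of 72 genes changed by a log2 difference of 1. It called 20 of 74 changed by 2 and 0 of 307 unchanged genes. The fit with 3 tumours per genotype called 12 of 46, 52 of 58 and 7 of 142, in the same order. Absence of a call thus does not show that a gene was unchanged. In the 3 tumours with at least 10 DC-like cells (WT4 against KO2 and KO4), 10 of 455 genes passed edgeR's adjusted p of 0.05 (2.2%), 3 higher and 7 lower in Δ/Δ cells, under the assumption that the lone WT/WT tumour varies as the Δ/Δ tumours do. Of the lower, Fabp4, Sparc, Igfbp7, Ctla2a and Igfbp3 gave 43, 36, 30, 26 and 25 UMIs in WT4 and 0 in KO2 and KO4, and the endothelial-marked barcode alone held 43, 32, 30, 26 and 25 of them. Ly6a (-3.03 ± 0.79) and Vim (-1.34 ± 0.40) were the other lower genes. Without that barcode edgeR called 0 of 357 (smallest adjusted p = 0.162, with 13 at an unadjusted p under 0.05), and with it DESeq2 called 2. Cd74 (0.82 ± 0.17) and H2-Ab1 (0.99 ± 0.26), genes of the rule and so descriptions only, although counted among the 10, were higher in this fit and turned to -0.16 and -0.03 with 3 tumours per genotype.

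With 3 tumours per genotype (WT1, WT2 and WT4 against KO1, KO2 and KO4), and without the endothelial-marked barcodes, 1 of 231 genes passed in edgeR (0.433%). It was also among the 10 of the first fit, with the same sign (10% of the 10 and 100% of the 1), and 4 of those 10 genes could be tested in both fits. DESeq2 called 0 (smallest adjusted p = 0.0753, with 2 genes at an unadjusted p under 0.05), and with the replicate number as a block edgeR called 0 (smallest adjusted p = 0.185, with 5 genes at an unadjusted p under 0.05). The gene was not called with any of the 6 tumours left out, where edgeR called 0 genes, or without WT4 1 other gene, lower in Δ/Δ cells.

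Genes of the ATF4 response, which serve amino acid supply and the stress response, were sparse. Of 39 listed, 33 had a UMI in the 69 barcodes, 273 UMIs in all. In the fit over 3 tumours 2 could be tested and 0 passed in edgeR, with the amino acid transporters Slc38a2 at 0.44 ± 1.22 and Slc3a2 at 0.22 ± 0.83. Changes of the size of these errors were not detectable at this depth.

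Several groups of dendritic genes were sparse, with at most 1 gene of each list below tested in any comparison. Co-stimulation and checkpoint ligands gave 118 UMIs over 15 of 17 genes, led by the T-cell co-stimulator Cd86 (19 UMIs), the checkpoint ligand Cd274 (15) and Cd200 (13). The cDC2 genes gave 84 UMIs over 8 of 10, led by the lectins Mgl2 (24) and Clec10a (21). The 1 cDC2 gene tested against macrophages was Sirpa, which entered through macrophages alone and was lower in DC-like cells (-3.90 ± 0.57 over 3 tumours and -3.59 over 6). Of 11 plasmacytoid genes 5 had a UMI, mostly Bst2 (32), Tcf4 (19) and Irf7 (15), which other cells also use, with 1 UMI of the plasmacytoid receptor Siglech. Against macrophages Bst2 gave -0.98 and did not pass (edgeR adjusted p = 0.0625). The Langerhans cell genes Cd207 and Epcam were at 0 in the 69 barcodes, which allows a share of up to 4.35% of cells with a UMI.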

How the data were processed

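The authors deposited 1 table of UMI counts per tumour, with genes in rows and cell barcodes in columns, as 10x Genomics 3′ libraries give them. The submitters' processing notes name Cell Ranger 3.1.0, Seurat 3.2.1 and GRCm38. The deposited counts are raw and were not normalized, and doublets were not removed and no doublet caller was run here. Every column was mapped to a tumour (0 were left out).

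Barcodes with 200 to 5000 genes and at most 7.5% mitochondrial UMIs were kept. The members and the gene lists were chosen with earlier results of these data known. UMIs were summed per tumour and class, and levels are UMIs per 10,000 of that sum. Since these are 3′ tags, levels of different genes were not compared. Sums were tested with edgeR 4.0.16 in R 4.3.3 (filterByExpr, TMM, quasi-likelihood test, Benjamini-Hochberg adjustment, threshold 0.05), with the tumour as a block between classes of the same tumours. The 23 genes of the rules were left out of calls between classes and kept in the genotype fits. SE is that of the log2 difference. Shares were tested by exact two-sided permutation over tumours. P-values measure the spread between tumours, which carry biological replicate numbers in the labels. The minimum of 10 cells per tumour (5 for mature and other cells) left 2 or 3 tumours, so fits with a minimum of 5 (2 for mature and other cells) were made as well. For genotypes the minimum of 5 was planned, and the fits between classes and those without the endothelial-marked barcodes were added after seeing the data. Intervals at 95% cover counting error only, and a count of 0 was taken to allow 3 counts. The scripts were tested on simulated data.

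Genes were named by a rule: Atf4, the genes of the membership rule, the 10 smallest p-values on each side between genotypes, the 15 largest folds on each side between classes among genes that passed and moved the same way in every tumour, and examples from the gene lists. Genes described within gene groups, and H2-K1, Nfkbia and Npc2, which did not move the same way in every tumour, were named besides. Some genes that passed are not reported here. Alternatives were DESeq2 1.42.0, no filter on low counts, no TMM, other limits on members, leaving out each tumour, thinning, the replicate number as a block and sex as a covariate.

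Whether replicate numbers pair tumours was checked by correlating deviations from the group means over 7865 genes. Same-numbered tumours gave r of -0.0918, -0.498, -0.439 and -0.151. Tumours of different numbers gave -0.367 (WT1 and KO2) to 0.527 (WT3 and KO2). Same-numbered tumours were thus not the more alike by this measure, which cannot show whether tumours shared a litter or a preparation.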

Additional observations from a re-analysis of the deposited data

Results flagged for a closer look

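Of 26 groups of 4 tumours examined for a value far from the others, 3 held one. Chance gives about 1 in 20 for continuous values, a rate that need not hold for sparse UMIs such as those of Clec9a and Apoe. WT3 gave 0.985% DC-like cells among barcodes under the melanoma limit, with the other WT/WT tumours from 4.31% to 4.95%. WT1 held 2.71 Clec9a UMIs per 10,000 in DC-like cells, with the other 3 WT/WT tumours at 0. WT3 held 6.80 Apoe UMIs per 10,000 in DC-like cells, with the next WT/WT tumour at 1.06, and it has 2 such cells with 2943 UMIs in all.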

How the results depend on the processing

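The share of DC-like cells (Δ/Δ minus WT/WT) was -1.31 percentage points with barcodes under the melanoma limit as denominator, and -0.0571 to 0.148 with each tumour left out (-0.0571 without KO4). Thinned to 2000 UMIs, which left 14 DC-like cells, it was 0.0149% in WT/WT and 0.0919% in Δ/Δ tumours (exact permutation test, p = 0.143). The mature share difference was -11.2 with a limit of 1 UMI and 23.8 with a limit of 6 UMIs. With each tumour left out it was -15.4 to 20.3 (-15.4 without KO1). Under the replicate block, with the numbers as labelled, these shares had p = 0.5 and p = 0.75 by exact permutation. The count of genes called between genotypes was 2 with DESeq2, 0 without the endothelial-marked barcodes and 1 with at least 5 cells per tumour, where Cd74 (-0.159), H2-Ab1 (-0.0293), H2-Eb1 (-0.278), H2-Aa (-0.219) and Lcp1 (-0.0254) turned. Over 6 tumours it was 0 with DESeq2, with the replicate block and with sex as a covariate, by label or by Xist and Y-linked UMIs, and 0 to 1 with each tumour left out. For mature against other cells in 2 tumours, DESeq2 called 1, no filter 2, and 0 passed without the barcodes admitted by Fscn1 alone or without the endothelial-marked one. Over 5 tumours, DESeq2 called 13, no filter 25, and leaving out each gave 13 to 21. Against macrophages in 3 tumours, DESeq2 called 129, no filter 369, and 10 passed without the barcodes admitted by Fscn1 alone, with 152 to 276 leaving out each tumour. Over 6 tumours no filter gave 680 and leaving out each gave 113 (without KO4) to 271 (without WT2). Against myeloid cells in 3 tumours, DESeq2 called 59, no filter 196, and 190 passed without the barcodes admitted by Fscn1 alone, with 67 (without KO4) to 106 leaving out each tumour. Over 6 tumours no filter gave 307. The cause was not tested, beyond the fewer tumours or genes of a fit. Mature limits of 1 and 6 UMIs and leaving out a tumour could not be fitted for mature cells in 2 tumours, nor leaving out a tumour or the barcodes admitted by Fscn1 alone for genotypes in 3 tumours, and thinning to 2000 UMIs left 1 tumour for the mature share. Depth limits all of this: the median DC-like cell held 1541 UMIs, and few genes could be tested.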
